A study of Caenorhabditis elegans with 2 samples.

Results

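The genes described here are 38 C. elegans genes of synaptic function, all protein-coding and all found in the annotation, out of 19973 protein-coding genes. They were listed by gene function, with no threshold on a measured value, but with earlier results of these data known. Of these, 25 encode proteins of vesicle release, recycling, peptide processing and neuronal transport that most or many neurons use. The other 13 encode enzymes, transporters, a transporter-sorting protein or a receptor for particular transmitters, some of them serving several monoamines. The measurement was chromatin immunoprecipitation with sequencing (ChIP-seq) of CEH-63, a homeodomain transcription factor described in the DVC interneuron. Both samples were biological replicates of the strain OP742, which carries the transgene wgIs742, a fusion of C02F12.10 (ceh-63) with TY1, EGFP and 3xFLAG tags next to a working unc-119 copy. The host allele was unc-119(tm4063), so the animals share that mutation. They were whole L1 larvae of mixed sex, synchronised by bleaching, starved and aged 6 hours, and the precipitation used an anti-GFP antibody, although the antibody field of the labels reads ceh-63. No other condition belongs to the series, so each gene was compared with the other genes and the replicates with each other. The labels do not give the promoter that drives the fusion. In whole animals, a site used strongly in few cells and one used weakly in many cannot be told apart.

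At a chemical synapse, the small GTPase RAB-3 and its partners bring vesicles to the membrane, UNC-13 and UNC-18 prepare them, and the SNARE proteins synaptobrevin, syntaxin and SNAP-25 fuse them. Neuropeptides leave in dense core vesicles after cutting by convertases and carboxypeptidases, and a kinesin carries vesicles along the axon. What a neuron releases depends on a small set of enzymes and vesicular transporters, each present in only part of the neuron classes, while the release machinery is shared.

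The deposited files are lists of peak intervals, 30000 in each replicate list and 30000 in the list called on both replicates together (the pooled list), with 479 in the reproducible list. The reproducible peaks were the 479 pooled peaks of highest signal. Read depth is unknown, and signal has no stated scale, so peaks were ranked within a list, rank 1 being the strongest. The pooled list is permissive: only 194 of its peaks had a q of 0.05 or less, and a low rank there does not mark a site that was called with confidence. A peak was assigned to each gene that had an annotated transcript start within 1000 bp, or 2000 bp, of the summit.

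Reproducible peaks lay within 2000 bp of a start of 5 of the 38 genes, and all 5 belonged to the release and transport genes. These were unc-104, which encodes the kinesin that carries synaptic vesicle precursors, ida-1, a dense core vesicle membrane protein related to mammalian IA-2, unc-64, the syntaxin of the release machinery, ehs-1, an Eps15-like endocytic protein, and aex-3, the exchange factor that activates RAB-3. The first pair had the peak within 1000 bp. That makes 2 of 38 (5.26%, 95% Wilson interval 1.46 to 17.3) within 1000 bp, where 1.66% of all protein-coding genes had a reproducible peak, and 5 of 38 (13.2%, interval 5.75 to 27.3) within 2000 bp, where the share of all protein-coding genes was 2.48%. Among the 25 release and transport genes alone, the counts were 2 (8%, interval 2.22 to 25) and 5 (20%, interval 8.86 to 39.1). None of the 13 transmitter genes had one at either distance, which allows a share of up to 23.1%, and their interval (0 to 22.8) overlaps that of the release and transport genes and holds the background. The intervals cover counting error only. No enrichment test was run, since the genes were listed with results of these data known.

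The DNA under 4 reproducible peaks is shown because they are the strongest near or inside the listed genes. The peak inside ida-1 lies 3441 bp from the start, beyond the distance used for assignment. Each stretch holds 300 bases around the summit on the strand of the gene, from the RefSeq sequence of WBcel235 (the ce11 assembly), with the summit at base 150. Capitals mark TAATTA, the core word of many homeodomain sites, and runs that hold GAGAGAGA or its reverse complement TCTCTCTC, overlapping matches included. The unc-104 peak is at chrII:6995602-6995901 (plus strand), the upstream ida-1 peak at chrIII:5755145-5755444 (plus), the peak inside ida-1 at chrIII:5758831-5759130 (plus) and the unc-64 peak at chrIII:13275865-13276164 (plus).
unc-104: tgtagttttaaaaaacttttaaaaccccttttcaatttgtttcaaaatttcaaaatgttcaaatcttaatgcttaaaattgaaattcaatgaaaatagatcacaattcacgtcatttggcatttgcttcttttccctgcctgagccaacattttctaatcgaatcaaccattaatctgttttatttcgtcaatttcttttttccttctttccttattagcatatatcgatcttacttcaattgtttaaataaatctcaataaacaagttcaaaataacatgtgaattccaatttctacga
ida-1, upstream: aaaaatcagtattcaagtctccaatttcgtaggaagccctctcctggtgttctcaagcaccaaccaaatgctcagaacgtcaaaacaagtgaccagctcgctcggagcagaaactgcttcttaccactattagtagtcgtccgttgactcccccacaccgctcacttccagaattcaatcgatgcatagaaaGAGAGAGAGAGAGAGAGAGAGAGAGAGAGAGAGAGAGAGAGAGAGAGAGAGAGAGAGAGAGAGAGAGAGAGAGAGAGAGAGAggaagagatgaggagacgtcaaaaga
ida-1, inside the gene: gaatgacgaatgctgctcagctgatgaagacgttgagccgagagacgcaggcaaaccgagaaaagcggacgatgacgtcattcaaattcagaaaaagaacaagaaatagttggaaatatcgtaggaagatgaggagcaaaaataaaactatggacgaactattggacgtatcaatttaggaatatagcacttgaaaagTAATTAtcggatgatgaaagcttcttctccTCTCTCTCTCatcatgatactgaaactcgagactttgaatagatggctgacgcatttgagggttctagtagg
unc-64: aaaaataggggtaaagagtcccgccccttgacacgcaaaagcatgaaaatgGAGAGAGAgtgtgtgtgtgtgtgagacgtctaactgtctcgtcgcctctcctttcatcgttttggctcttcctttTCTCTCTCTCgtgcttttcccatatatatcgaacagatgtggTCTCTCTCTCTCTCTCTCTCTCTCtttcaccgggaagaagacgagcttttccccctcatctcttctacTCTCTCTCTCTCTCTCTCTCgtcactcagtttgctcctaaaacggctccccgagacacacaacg

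The unc-104 stretch is AT-rich, with 27% G and C, the lowest value among the 24 best pooled peaks within 1000 bp of the listed genes, and holds no capitals. The other 3 stretches carry GA or CT repeats, and the ida-1 upstream peak has an unbroken GA run of 82 bases. Whether such simple repeats affect the mapping of reads there was not tested. Of the 6 reproducible peaks at the listed genes, 3 (50%, interval 18.8 to 81.2) held GAGAGAGA or its complement, against 7.72% of all 479 reproducible peaks and 3.12% of the pooled list. That word was picked after these sequences had been seen, so the contrast is a description of 6 peaks. Both ida-1 peaks are among the 3, so the peaks are not independent, as the interval takes them to be. The peak inside ida-1 also lies beyond the 2000 bp used for assignment. Among the best pooled peaks within 1000 bp, GAGAGAGA or its complement was in 4 of 18 at the release and transport genes (22.2%, interval 9 to 45.2). These were at ida-1, rab-3, unc-33 and unc-76. The ida-1 peak is the upstream one shown above, from which the word was picked, so the 18 are not a separate observation. At the transmitter genes the word was in 0 of 6, and over all protein-coding genes in 2.63% of the best peaks. TAATTA was in 1 of the 6 reproducible peaks, inside ida-1, where 14.2% of all reproducible peaks held it. It was in none of the 24 best pooled peaks within 1000 bp of the listed genes (0 of 18 and 0 of 6), where 11.7% of the best peaks of all protein-coding genes held it. No match says only that these letters are missing from the window.

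At unc-104 (WBGene00006831, II 6994987 to 7010625), the peak at 6995566 to 6995935 had rank 191 in the pooled list with a signal of 143. Its summit lay 181 bp upstream of the most downstream of 3 annotated starts, in an intron of the longer transcripts. It was the only one of these peaks with a q under 0.05 (q = 0.0446). The matching peak had rank 158 in replicate 1 and rank 467 in replicate 2, so both replicates placed it among their strongest 479.

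At ida-1 (WBGene00002048, III 5755539 to 5765816) 2 reproducible peaks were found. The upstream one (5755109 to 5755478, rank 269, signal 129) had its summit 245 bp upstream of the start and 137 bp from the start of the non-coding gene B0244.14. It ranked 251 in replicate 1 and 306 in replicate 2. The one in an intron (5758795 to 5759164, rank 207, signal 139) lay 3441 bp downstream of the start, beyond the distance used for assignment, and ranked 603 in replicate 1 and 182 in replicate 2. With unc-104, the upstream ida-1 peak was thus among the strongest 479 of each replicate.

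The other 3 genes had their reproducible peak between 1000 and 2000 bp from a start, and the replicates ranked it differently. At unc-64 (WBGene00006798, III 13277258 to 13283887), the intergenic peak at 13275829 to 13276198 (rank 228, signal 134) lay 1244 bp upstream, with the non-coding gene F56A8.10 nearer at 946 bp. It ranked 83 in replicate 1 and 2920 in replicate 2. At ehs-1 (WBGene00001224, II 5820712 to 5823862), the peak at 5821711 to 5822080 (rank 355, signal 119.2) was in a coding exon, 1176 bp downstream of the start. It ranked 173 in replicate 1 and 1595 in replicate 2. At aex-3 (WBGene00000086, X 751203 to 759734), the intergenic peak at 760588 to 760957 (rank 475, signal 111.7) lay 1039 bp upstream and stood 4 ranks above the end of the reproducible list. It ranked 559 in replicate 1 and 1579 in replicate 2, outside the strongest 479 of both. For the unc-64, ehs-1 and aex-3 peaks replicate 1 gave the higher place each time.

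**Figure D1:**
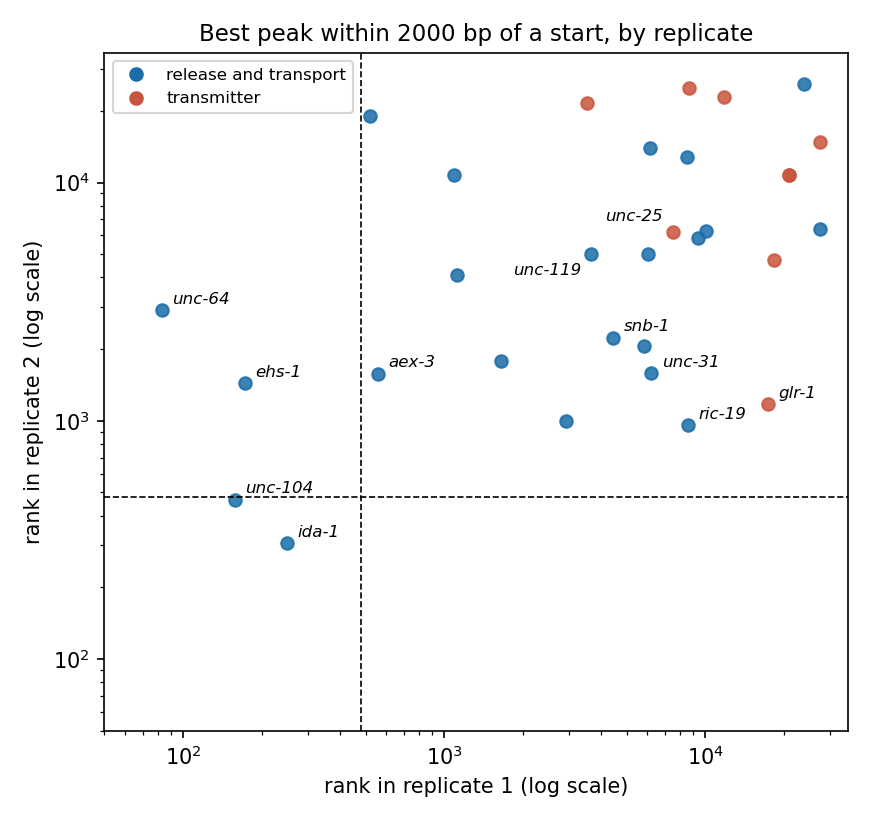
Rank of the best peak within 2000 bp of a start in replicate 1 (x axis) and replicate 2 (y axis), both on log scales, for the 31 genes with such a peak in both, coloured by group. The dashed lines mark rank 479, and unc-104 and ida-1 are the only genes below and to the left of both. A point may join different peaks of a gene, as for glr-1.

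Below the reproducible peaks, the next best at these genes were unc-18 (rank 1125, 1663 bp upstream of the start) and snb-1 (rank 1468, 830 bp upstream). The −log10 q of the best pooled peak of the remaining genes with one within 2000 bp ran from 0.0313 at unc-25 to 0.168 at unc-18, against 1.35 at unc-104. What follows on ranks therefore concerns weak peaks.

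Within 1000 bp of a start, 18 of the 25 release and transport genes (72%, interval 52.4 to 85.7) had some pooled peak, and 6 of the 13 transmitter genes (46.2%, interval 23.2 to 70.9), against 53.3% of all protein-coding genes. Within 2000 bp the counts were 23 of 25 (92%) and 11 of 13 (84.6%), against 74.1%. Among the 11, unc-17 and cha-1 share the same peak. The groups differed more in how strong the best peak was. Each gene with a pooled peak within 1000 bp was given a percentile, the share of the 10651 protein-coding genes with such a peak whose best one was weaker. The median was 81.5 over the 18 release and transport genes (quartiles 75.5 and 89.3) and 25.7 over the 6 transmitter genes (quartiles 23.8 and 50.5), where all genes have 50 by construction. The top 25% held 13 of the 18 and 0 of the 6, against 25% of all by construction. That limit was chosen after the values were seen, and genes with no peak are left out of these medians.

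**Figure D2:**
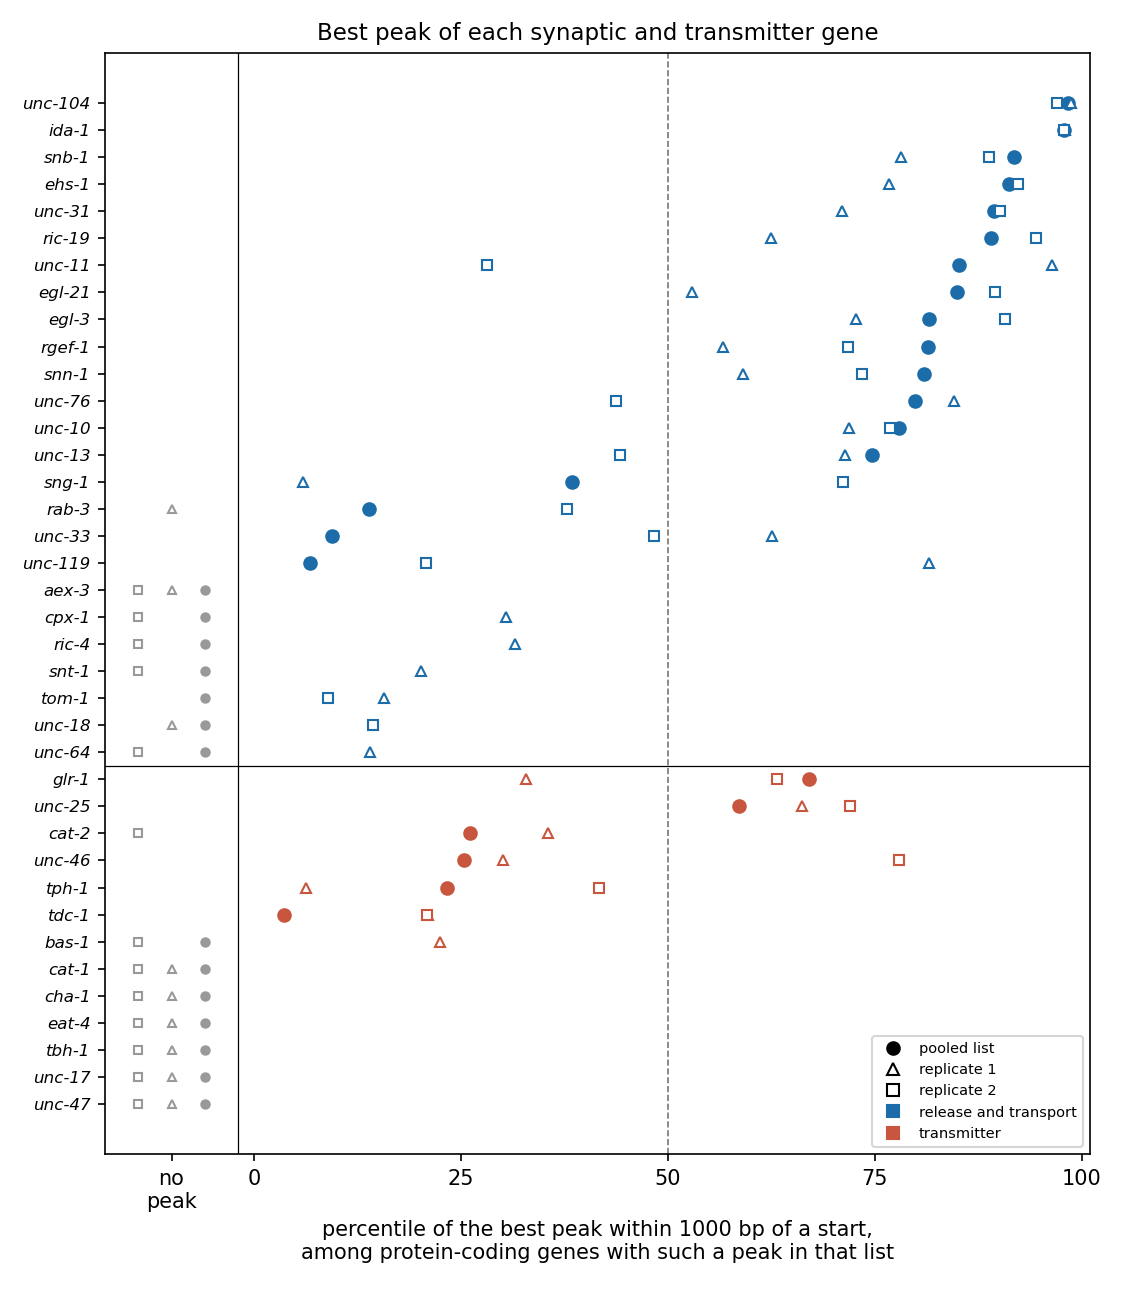
Percentile of the best peak within 1000 bp of a start (x axis) for each of the 38 genes (y axis), in the pooled list (filled circles), replicate 1 (triangles) and replicate 2 (squares); grey symbols at the left mark genes with no such peak in that list. In the pooled list 14 of the 18 release and transport genes lie above the dashed median at 50, as do glr-1 and unc-25 among the transmitter genes.

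Both replicates, each ranked alone, placed the median of the release and transport genes above the middle, and within 1000 bp they differed on the transmitter genes. Part of the release and transport genes lay below the middle, with lower quartiles within 1000 bp of 36.8 in replicate 1 and 42.3 in replicate 2. In replicate 1, 22 of 25 release and transport genes had a peak within 1000 bp, with a median percentile of 66.9, and 7 of 13 transmitter genes did, with a median of 30.1. In replicate 2, the numbers were 20 of 25 with a median of 72.7, and 5 of 13 with a median of 63.2. The share of all protein-coding genes was 53.4% in replicate 1 and 53% in replicate 2, and within 2000 bp it was 73.6% and 74.7%, where 36 and 33 of the 38 genes had a peak. The top 25% held 7 release and transport genes and 0 transmitter genes in replicate 1, and 9 and 1 in replicate 2. The groups thus lay closer together in replicate 2 at this distance, where the transmitter median rests on 5 genes. Within 2000 bp the medians in replicate 1 were 71.7 over 24 release and transport genes and 33.4 over 12 transmitter genes. They were 77.3 over 23 and 43.8 over 10 in replicate 2, and 83.2 over 23 and 33.3 over 11 in the pooled list. Since unc-17 and cha-1 share a peak, these transmitter genes held 11, 9 and 10 separate peaks in that order. Single genes moved as well: over the 23 genes with a peak within 1000 bp in both replicates, the percentiles differed by a median of 18.1 points, and the best peaks lay within 200 bp of each other for 8 of them (34.8%), namely ida-1, unc-104, snb-1, unc-31, ric-19, unc-76, rgef-1 and glr-1. For the other genes, replicate ranks given below for peaks within 1000 bp belong to different peaks. For all protein-coding genes the corresponding values were 21.4 points and 54%. Spearman's coefficient between the replicates was 0.342 over the 23 genes and 0.336 over the 7258 protein-coding genes with a peak in both, values across genes that share libraries and the control alignment.

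The release and transport genes also have more annotated starts than most genes, and genes with more starts have more places at which a peak can be assigned. Several starts were annotated for 19 of 25 release and transport genes (76%) and 7 of 13 transmitter genes (53.8%), against 27.4% of all protein-coding genes. Median gene length was 6630 bp, 4480 bp and 2027 bp in that order. Among all genes with 3 or more starts, 75.7% had a pooled peak within 1000 bp with a median percentile of 63.5. The release and transport genes with 3 or more starts had 8 of 10 with a peak and a median of 80.5. Those with 1 start had 5 of 6 with a peak and a median of 89.1, against 48.4% and 46.4 for all genes with 1 start. Those with 2 starts had 5 of 9 with a peak (55.6%) and a median of 81.4, against 60.9% and 53 for all genes with 2 starts. The transmitter genes with 1 start had 2 of 6 with a peak and a median of 46.2, those with 2 starts 2 of 4 and 13.4, and those with 3 or more 2 of 3 and 42.4. With only the most upstream start of each gene, 14 release and transport genes had a pooled peak within 1000 bp, against 18 with all starts. The median over those 14 was 86.1. Each of these classes holds few listed genes, and the parts of start number and gene length in the contrast were not tested.

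Of the 11 vesicle fusion genes, 4 (36.4%) had a pooled peak within 1000 bp and 9 (81.8%) within 2000 bp, against 53.3% and 74.1% of all protein-coding genes. The median pooled percentiles over those with a peak were 76.3 and 84.9. Within 1000 bp the replicate medians lay below the middle, at 30.9 over 8 genes (replicate 1) and 41 over 6 (replicate 2). Within 2000 bp they lay above it, at 71.3 over 10 genes and 72.9 over 9 in the same order. The gene snb-1, which encodes synaptobrevin, ranked 4437 in replicate 1 and 2236 in replicate 2, with summits 835 and 830 bp upstream. The scaffold gene unc-10 (RIM) ranked 6009 and 5028 in the replicates and the priming gene unc-13 ranked 6137 and 13976. For unc-18, the best peaks of both replicates (ranks 1121 and 4076) lay 1674 and 1688 bp upstream, and the start of F27D9.9 was nearer, at 113 bp from the pooled summit. The calcium sensor gene snt-1 (synaptotagmin) had its best pooled peak 1387 bp upstream (rank 2598), which ranked 1089 in replicate 1 and 10749 in replicate 2. By contrast, rab-3 had a single pooled peak of rank 24376 and none in replicate 1 within 2000 bp. The SNAP-25 gene ric-4 had no pooled peak within 1000 bp, and the best within 2000 bp had rank 20729 and lay in the 3′ UTR. No pooled peak lay within 2000 bp of cpx-1 (complexin) or tom-1 (tomosyn), both regulators of fusion.

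All 4 genes of vesicle membrane and recycling proteins had a pooled peak within 1000 bp, where 53.3% of all protein-coding genes had one, with a median percentile of 83.1. At ehs-1, the best of these had rank 1574 and lay 189 bp inside the gene. At unc-11, the AP180 clathrin adaptor gene, the best peak ranked 521 in replicate 1 (597 bp inside the gene) and 19050 in replicate 2, where it lay at another start of the gene. The synapsin gene snn-1 ranked 9394 and 5825. For sng-1 (synaptogyrin), with a pooled percentile of 38.4, the replicate ranks were 27585 and 6389.

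All 5 dense core vesicle and peptide processing genes had a pooled peak within 1000 bp, again against 53.3%, and all 5 were in the top 25%, with a median percentile of 89.1 (quartiles 84.9 and 89.4). After ida-1 came unc-31, which encodes the CAPS protein of dense core vesicle release, with a summit 3 bp from a start and replicate ranks of 6206 and 1898. The peak of ric-19, which encodes an ICA69-like protein, ranked 8566 in replicate 1 and 962 in replicate 2. The peptide processing genes egl-21 (carboxypeptidase) and egl-3 (proprotein convertase) had pooled percentiles of 84.9 and 81.6. For egl-21 the replicate ranks were 11146 and 2051, and for egl-3 they were 5834 and 1783. Replicate 2 placed unc-31, ric-19, egl-21 and egl-3 higher than replicate 1 did: all 5 genes were in its top 25%, where replicate 1 had only ida-1.

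All 5 transport and outgrowth genes had a pooled peak within 1000 bp, also against 53.3%, and their percentiles were split. Besides unc-104, the neuronal Ras exchange factor gene rgef-1 had a percentile of 81.4 and the axonal transport adaptor gene unc-76 one of 79.9, with ranks of 2936 and 14122 for the same position in the replicates. The CRMP-like gene unc-33, needed for axon guidance, had 9.39, and unc-119, which encodes a lipid-binding chaperone, had 6.79. The transgene carries a copy of unc-119 and the host gene is mutant, so reads there may come from either copy. The best pooled peak of unc-119 (III 10902641 to 10908935) within 1000 bp had rank 27220, in a coding exon 544 bp from a start. In replicate 1 the best one had rank 3656, and in replicate 2 it had rank 21592 and lay elsewhere. Within 2000 bp, the best peak in replicate 2 had rank 4992 and lay 1449 bp upstream of a start, while that of replicate 1 was again the one of rank 3656. The best peaks of the replicates thus lay at different positions, and an effect of the transgene copy was not tested.

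**Figure D3:**
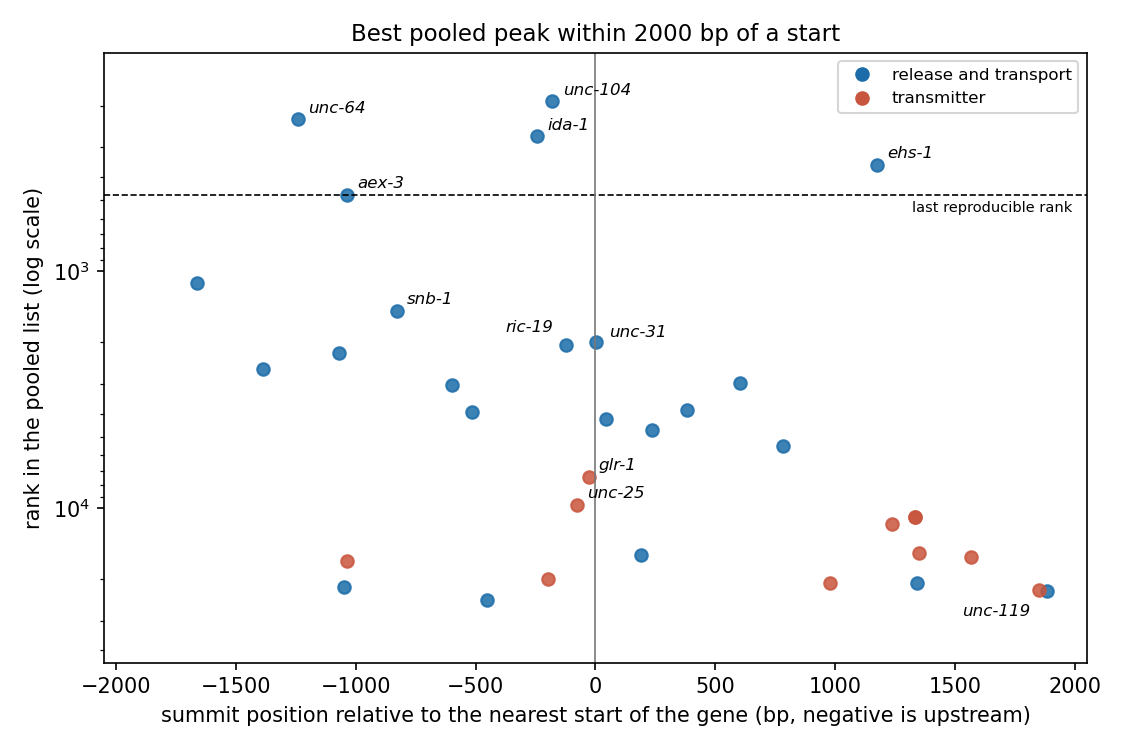
Position of the summit of the best pooled peak within 2000 bp, relative to the nearest start of the gene (x axis, bp, negative is upstream), and its rank (y axis, log scale, strongest at the top) for the 34 genes that had one. All 5 points above or at the dashed line at rank 479 are release and transport genes. The strongest transmitter gene is glr-1, with rank 7376.

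For the transmitter genes, the best pooled peaks were weak throughout. The highest was at glr-1, an AMPA-type glutamate receptor subunit, 29 bp upstream of the start (rank 7376, percentile 67.1), with ranks of 17427 and 8456 in the replicates. The GABA enzyme gene unc-25 (glutamate decarboxylase) followed, 79 bp upstream (rank 9685, percentile 58.6), with replicate ranks of 7526 and 6213. The remaining transmitter genes with a peak within 1000 bp lay between the percentiles 3.58 and 26.1. They were cat-2, the tyrosine hydroxylase of dopamine synthesis, unc-46, which sorts the GABA transporter to vesicles, tph-1, the tryptophan hydroxylase of serotonin synthesis, and tdc-1, the tyrosine decarboxylase. The tdc-1 value was the lowest of all the listed genes.

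No pooled peak within 1000 bp was found for the other 7 transmitter genes. The acetylcholine genes unc-17 (vesicular transporter) and cha-1 (choline acetyltransferase) share their locus, with starts 2 bp apart, and a single peak of rank 10972 inside both, 1336 and 1334 bp from the start. The vesicular transporter genes eat-4 (glutamate) and unc-47 (GABA) had peaks of rank 22324 and 16792 between 1000 and 2000 bp. The octopamine enzyme gene tbh-1 had one of rank 11730. For cat-1, the vesicular monoamine transporter, and bas-1, the decarboxylase of serotonin and dopamine synthesis, no pooled peak lay within 2000 bp.

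By position, the best pooled summits within 1000 bp fell on both sides of the start. Upstream of the start lay 8 of 18 for the release and transport genes (44.4%) and 3 of 6 for the transmitter genes (50%), against 48.2% of all protein-coding genes. The median distance was 302 bp, 462 bp and 450 bp. By feature, 7 of the 18 release and transport summits were in introns, 5 were intergenic and 3 were in coding exons, and the 6 transmitter summits were split evenly between intergenic sequence and coding exons.

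Other genes of the same pathways were taken from lists drawn up by function. Of 44 other synaptic genes, 4 (9.09%, interval 3.59 to 21.2) had a reproducible peak within 1000 bp, against 1.66% of all protein-coding genes. They were egl-30, the Gq subunit that stimulates release (I, 74 bp upstream, rank 78), pkc-1, a protein kinase C of neuropeptide release (V, rank 88), nsf-1, which takes SNARE complexes apart (I, rank 102), and unc-16, a JIP3-type transport adaptor (III, 52 bp upstream, rank 237). Their replicate ranks were 42 and 198, 109 and 67, 159 and 88, and 262 and 255, so all 4 were among the strongest 479 of both replicates. The pkc-1 peak lay nearer to the start of F10C2.10. Of 15 other enzyme and uptake genes for transmitters, 0 had one, which allows a share of up to 20%, and 2 of 55 receptor genes did (3.64%, interval 1 to 12.3). The latter were tyra-2, a tyramine receptor (X, rank 134), and acr-2, an acetylcholine receptor subunit (X, rank 309, nearer to the start of F38B6.17). Median percentiles of the best pooled peak within 1000 bp were 72.6 over 32 synaptic genes, 73.2 over 9 enzyme and uptake genes and 44 over 35 receptor genes. The enzyme and uptake genes thus had a higher pooled median than the 6 transmitter genes above, and in the replicates theirs was 41.6 and 58.9.

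Lists for other tissues and for neuropeptides give the scale of such differences, again beside the 1.66% of all protein-coding genes. Of 102 flp and nlp neuropeptide genes, 1 had a reproducible peak within 1000 bp (0.98%), and the median percentile over the 64 with a pooled peak was 46.7. Body wall muscle genes had 2 of 24 with a reproducible peak (8.33%, act-4 and cpn-3) and a median percentile of 78.6 over 15 genes. Intestine and epidermis genes had 0 of 23 and 0 of 24, which allows shares of up to 13% and 12.5%, with medians of 38 over 13 genes and 61.8 over 17. Within 1000 bp the release and transport genes, at 8% and 81.5, thus stood close to the muscle list on both measures. Within 2000 bp they had 20% and 83.2, against 8.33% and 73.3 for the muscle list. No difference between lists was tested.

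**Figure D4:**
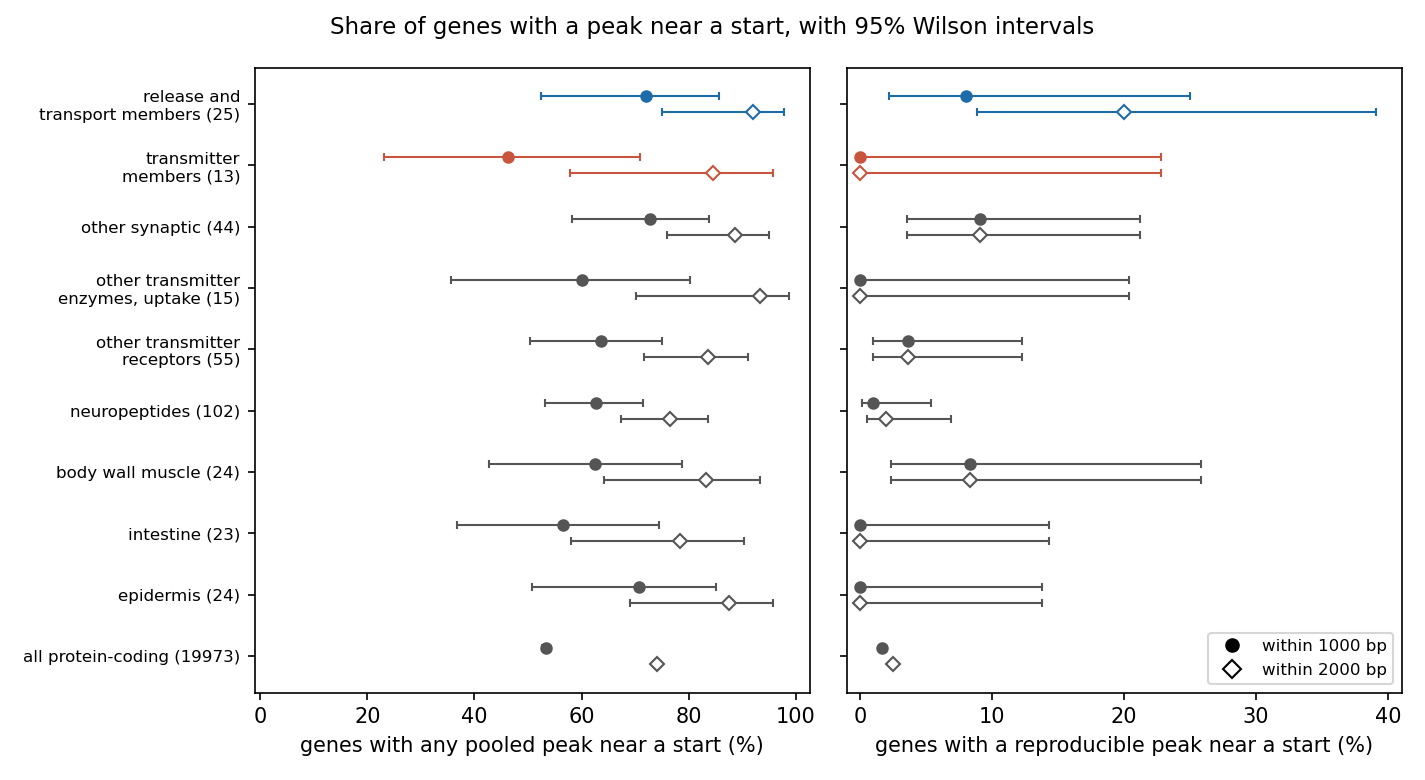
Share of genes (x axes, percent) with a pooled peak (left) or a reproducible peak (right) within 1000 bp (filled circles) and 2000 bp (open diamonds) of a start, for each list (y axis, number of genes in brackets), with 95% Wilson intervals. On the right the release and transport genes stand at 8% and 20%, and their interval at 2000 bp lies above those of the neuropeptide genes and all protein-coding genes but overlaps the rest.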

How the data were processed

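The authors deposited 4 narrowPeak lists on ce11, the sequence of WBcel235. Per the deposited README text, a list was called on each replicate and on both together with the same control alignment, and the reproducible list was derived from these 3 by irreproducible discovery rate (IDR). Neither caller nor aligner nor IDR cutoff is given in the sources used here. Signal is a score that the authors deposited with each peak, of unstated scale, used here only to rank peaks. The −log10 q is the value the authors deposited in the ninth column. No reads or depths were used, and the control was not analysed here.

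Gene starts came from Ensembl release 115, without pseudogenes. Every listed gene matched a symbol; unc-74 and opt-2 in the comparison lists did not. The summit is the deposited offset. The genes and lists were chosen with earlier results of these data known. By the naming rule all 38 genes are accounted for. Given in full are those whose best pooled peak within 2000 bp is reproducible, those with the highest and lowest percentile in each group, and unc-119. Genes of the 3 other pathway lists are named where a reproducible peak lies within 1000 bp, as is the gene with the start nearest to a reproducible peak. The second ida-1 peak and the muscle genes were named after their values were seen. Intervals are Wilson 95% (SciPy 1.17.1, NumPy 2.4.6, Python 3.11.15), and a count of 0 allows 3 genes of the total. The assignment was tested on simulated data. Both replicates are 1 group, so no test between groups exists. Alternatives covered the starts, the assignment, the distance, the peak list, each replicate alone and the background.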

Additional observations from a re-analysis of the deposited data

How the results depend on the processing

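No transmitter gene had a reproducible peak within 1000 bp with distance taken from the edge of the peak. None had a peak within 1000 bp among the strongest 479 of either replicate alone. The other alternatives only remove peaks, starts or genes, so they could not raise a count of 0. The count of 2 genes within 1000 bp, both in the release and transport group, became 1 with the peak given only to the gene with the nearest start, 4 with distance taken from the edge of the peak (adding aex-3 and ehs-1), 1 with the stronger 239 reproducible peaks and 1 with the 194 that have a q of 0.05 or less. It was 2 with the strongest 479 peaks of either replicate alone, ida-1 and unc-104 in both. The count of 5 within 2000 bp became 3 with the nearest start only, 2 with the stronger 239 peaks and 1 with q of 0.05 or less. It ranged from 2 (without replicate 1: ida-1 and unc-104) to 4 (without replicate 2: these with ehs-1 and unc-64), so 3 of the 5 genes rest on replicate 1 or on the pooled list. The median percentile over all genes with a peak, 78.9, ranged from 59.1 to 71.8 with 1 replicate each and was 59.6 with genes that have no peak placed last. For the release and transport genes, 81.5 over 18 genes became 86.1 over 14 with only the most upstream start. It was 66.9 to 72.7 with 1 replicate each and 88.2 with genes without a peak last. For the transmitter genes, 25.7 ranged from 30.1 to 63.2 with 1 replicate each, the latter in replicate 2 over 5 genes, where the 10 genes with a peak within 2000 bp had 43.8. The causes were not tested. Of 54 alternatives, 35 stayed within 1.5 times the count or within the spread between replicates. That spread, the standard deviation of the 2 replicate medians, was 23.4 points for the transmitter genes and 4.1 for the release and transport genes. The limits were thus unequal, and a transmitter median of 43.7 with only the most upstream start still counted as within the spread. These 35 include the alternatives at the transmitter genes that could only return 0. No paired analysis was possible because the series has 1 group. Unknown depth limits every value.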

Other observations

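At several listed genes the best peaks within 2000 bp had very different ranks in the replicates. At glr-1, replicate 2 had a peak of rank 1175 lying 1609 bp upstream, while the best in replicate 1 within 2000 bp had rank 17427. At tdc-1, replicate 1 had a peak of rank 3532 lying 1367 bp inside the gene, and the best in replicate 2 had rank 21526. At unc-76, replicate 2 had a peak of rank 996 lying 1441 bp upstream, and the best in replicate 1 had rank 2936 and lay 43 bp inside the gene. These genes were picked after their values were seen.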
